A study of Mus musculus with 4 samples.

Results

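The transcripts of 9 phosphatase genes were followed in mouse type 1 innate lymphoid cells (ILC1s). These cells reside in tissues and are related to natural killer (NK) cells. The phosphatases act on inositol lipids or, for Inpp5a, on soluble inositol phosphates. The genes were taken by symbol from a table of 40481 genes. They are the 4-phosphatase genes Inpp4b and Inpp4a, the 5-phosphatase genes Inpp5d, Inppl1, Inpp5a, Inpp5b, Inpp5e and Inpp5k, and Inpp5f. All 9 were present, each on a single line, and all 9 were among the 14863 genes with enough counts to be tested.

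RNA was sequenced from ILC1s chosen by the integrin CD49a, and the study addresses the part that the phosphatase INPP4B plays in these cells. Control cells carried the genotype Inpp4b flox/flox (2 libraries, numbered 1 and 2). The other cells carried Ncr1-iCre Inpp4b flox/flox (2 libraries, numbered 3 and 4) and are called the libraries labelled knockout. Floxed Inpp4b alleles were thus shared by both groups, and the iCre transgene was present in the libraries labelled knockout alone, so its presence and the recombination it drives cannot be told apart. The transgene is named after Ncr1, the gene of the receptor NKp46, which NK cells, ILC1s and some other innate lymphoid cells carry. Liver is given as the tissue of control library 1, and age, sex, strain and the number of animals behind a library are not stated in the sources used here.

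Class I phosphoinositide 3-kinases make the membrane lipid PI(3,4,5)P3, which recruits AKT and other kinases. 5-phosphatases of the SHIP type turn PI(3,4,5)P3 into PI(3,4)P2, which also binds AKT, and the 4-phosphatases INPP4A and INPP4B remove PI(3,4)P2 by turning it into PI(3)P. SHIP1, the product of Inpp5d, is known as a brake on receptor signalling in NK cells and other blood cells, and 3-phosphatases of the myotubularin family act on PI(3)P, the product of the 4-phosphatases.

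Library totals ranged from 42380840 to 54878210 counts, and replicates differed by far more than sampling noise, so each library was counted as a sample. The labels tie no library to an animal, so the p-values cover the spread between libraries, which may be technical. The defining ILC1 genes were present in all 4 libraries. Levels are given as CPM, counts for every 1000000 counts of the library total after TMM scaling. Itga1, the gene of CD49a, gave 217.6 and 207.9 CPM in controls against 178.9 and 206.0 CPM in libraries labelled knockout. Of 12 ILC1 markers, 0 passed the edgeR test. Before adjustment for all genes, Cd69 (log2 fold change 0.38) and Ncr1 (log2 fold change -0.60) had an edgeR p under 0.05, and DESeq2 called 1 of them, Ncr1, as lower (adjusted p = 0.0149). Markers of some other cells differed. Of 17 tested monocyte, macrophage and dendritic cell markers, edgeR called 8 higher in libraries labelled knockout. The list summed to 3160 to 3762 CPM there against 1049 to 1209 CPM in controls. Lyz2 was at 43.1 and 71.5 CPM in controls and at 626.0 and 582.5 CPM in libraries labelled knockout. Of the 17, 2 had a negative log2 fold change, and Clec4f, which defines Kupffer cells, did not exceed 5.69 CPM in any library. Of 10 tested T cell markers, edgeR called 1 higher and DESeq2 4, and 7 were higher at an unadjusted p under 0.05. The list summed to 2955 to 4015 against 2419 to 2445 CPM. Much of that sum was Cd3g, at 1468.6 and 1255.3 CPM in controls and at 1623.1 and 1930.5 CPM in libraries labelled knockout. Cd3e was at 26.5 and 15.1 CPM in controls and at 152.5 and 371.0 CPM in libraries labelled knockout. Of the 10, 2 had a negative log2 fold change. Of 9 tested markers of conventional NK cells, edgeR called 1 higher and DESeq2 1, and 2 were higher at an unadjusted p under 0.05. The list summed to 972.2 to 1366 against 641.3 to 668.2 CPM. Of the 9, 8 had a positive log2 fold change and 1 a negative one. The groups did not overlap for 5 on the higher side and 1 on the lower, beside 19.5% and 20.8% of all genes. The summed level of 10 hepatocyte markers was 174.3 to 188.8 against 114.6 to 173.0 CPM, and edgeR called 0 of them (1 higher unadjusted, 1 by DESeq2). Neutrophil markers summed to 250.2 and 168.1 against 102.8 and 97.6 CPM. Of 4 tested, edgeR called 0 (2 higher unadjusted, 1 by DESeq2), and 1 had a negative log2 fold change. Erythroid and platelet markers summed to 269.7 and 952.5 against 452.2 and 312.5 CPM. Of 9 tested, edgeR called 0 (2 lower unadjusted, 1 by DESeq2), and 5 had a positive log2 fold change.

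The upstream sequences of the genes on which the results turn are shown first: the 4-phosphatase pair, whose balance is described further on, and Inpp5e, the member with the smallest p. RefSeq windows of GRCm38.p6 (the assembly also called mm10) were matched for all 9 genes, in 14 windows since some genes have several starts. The 250 bases before the most upstream start are given 5′ to 3′ on the gene's strand: chr1:37299588-37299837 for Inpp4a (plus strand), chr8:81342312-81342561 for Inpp4b (plus strand) and chr2:26409220-26409469 for Inpp5e (minus strand). Capitals mark matches to the motifs named after the sequences.
Inpp4a: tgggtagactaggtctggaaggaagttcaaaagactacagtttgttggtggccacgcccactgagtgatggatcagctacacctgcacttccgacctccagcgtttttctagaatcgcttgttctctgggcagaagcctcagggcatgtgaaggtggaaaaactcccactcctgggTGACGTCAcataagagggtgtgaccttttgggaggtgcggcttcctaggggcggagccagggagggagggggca
Inpp4b: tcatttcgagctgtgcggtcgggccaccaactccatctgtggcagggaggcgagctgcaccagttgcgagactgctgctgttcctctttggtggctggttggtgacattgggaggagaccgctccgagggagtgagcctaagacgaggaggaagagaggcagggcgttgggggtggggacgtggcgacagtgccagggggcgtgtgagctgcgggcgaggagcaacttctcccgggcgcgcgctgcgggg
Inpp5e: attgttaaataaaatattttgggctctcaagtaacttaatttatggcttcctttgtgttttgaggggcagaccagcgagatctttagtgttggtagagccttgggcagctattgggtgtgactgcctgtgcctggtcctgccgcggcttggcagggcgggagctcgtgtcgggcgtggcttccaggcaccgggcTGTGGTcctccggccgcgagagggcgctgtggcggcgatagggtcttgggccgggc

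Both strands of each window were searched for a cyclic AMP response element (TGACGTCA), an E-box (CACGTG), a FOXO motif (GTAAACA), an ETS motif (CCGGAAG), a RUNX motif (TGTGGT), a T-box motif (AGGTGTGA) and a STAT motif (TTCNNNGAA), none of which overlapped another in these windows. The Inpp4a window held a cyclic AMP response element starting 74 bases before the start, a match found in 1.55% of 32851 windows of that length. The Inpp4b window held none of the 7 motifs, and it was richer in bases G and C (66.0% against 55.6% for Inpp4a) and held 19 CpG dinucleotides against 7. The Inpp5e window held a RUNX match 56 bases before the start, and 14.0% of all windows held that motif. Its second window added an ETS match, found in 6.91% of all windows. FOXO, E-box and T-box letters were in 0 of the 14 windows, and among all windows they were in 3.17%, 6.02% and 1.12%.

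**Figure D1:**
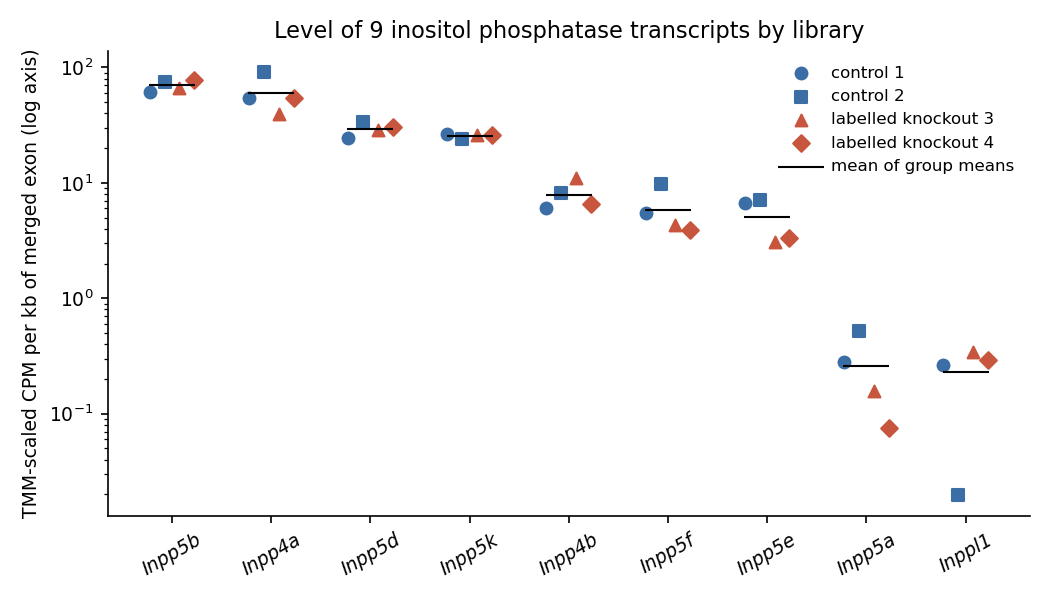
Level of each of the 9 phosphatase transcripts in each library, as TMM-scaled CPM per kilobase of merged exon on a log axis, ordered by the mean of the group means (black lines). Inpp5b and Inpp4a stand at the top, Inpp4b lies in the middle, and Inpp5a and Inppl1 lie below 0.6 in every library.

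Inpp5b and Inpp4a were the most abundant of the 9 transcripts once length was taken into account, and Inpp4b stood at rank 5. The scale here is CPM, scaled by the TMM method, per kilobase of merged exon. Inpp5b, whose product is a relative of the Lowe syndrome protein OCRL, averaged 70.0 CPM per kilobase and ranked above 94.0% of 14853 tested genes. Inpp4a averaged 59.9, Inpp5d 29.5 and Inpp5k 25.6 CPM per kilobase. Inpp4b averaged 7.92, above 67.5% of tested genes, followed by Inpp5f at 5.85 and Inpp5e at 5.05 CPM per kilobase. Inpp5a and Inppl1 were scarce, at 0.258 and 0.230 CPM per kilobase, which placed them above 12.0% and 11.0% of tested genes.

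The order falls into 4 steps whose values did not overlap between libraries. Inpp5b and Inpp4a overlapped with each other, and Inpp4a lay above Inpp5d in all 4 libraries, by 2.03-fold in the mean. Inpp5d and Inpp5k overlapped, and Inpp5k lay 3.23-fold above Inpp4b. Inpp4b, Inpp5f and Inpp5e overlapped, and Inpp5e lay 19.5-fold above Inpp5a. The last pair, Inpp5a and Inppl1, overlapped, and their order differed between the groups. Inpp5b and Inpp4a changed places when the longest transcript, or no length, was used instead of merged exons.

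Across the genotype labels, 0 of the 9 genes passed the edgeR test, in which 0.155% of all tested genes were called in either direction. At an unadjusted p under 0.05, 2 of the 9 were lower (Inpp5e and Inpp5f) and 0 were higher, against 5.17% and 4.48% of all genes. CPM values of the groups did not overlap for 3 members that were lower in libraries labelled knockout (Inpp5a, Inpp5e and Inpp5f) and for 1 that was higher (Inppl1), against 20.8% and 19.5% of all genes. The median log2 fold change of the 9 was 0.01, and that of all tested genes was -0.01. DESeq2 called 1 of the 9, Inpp5e, as lower, and 1.29% of all genes in that direction. edgeR with no filter on low counts called 3 of the 9 (Inpp4a, Inpp5e and Inpp5f), all lower, against 1.1% of the 23999 genes then tested.

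**Figure D2:**
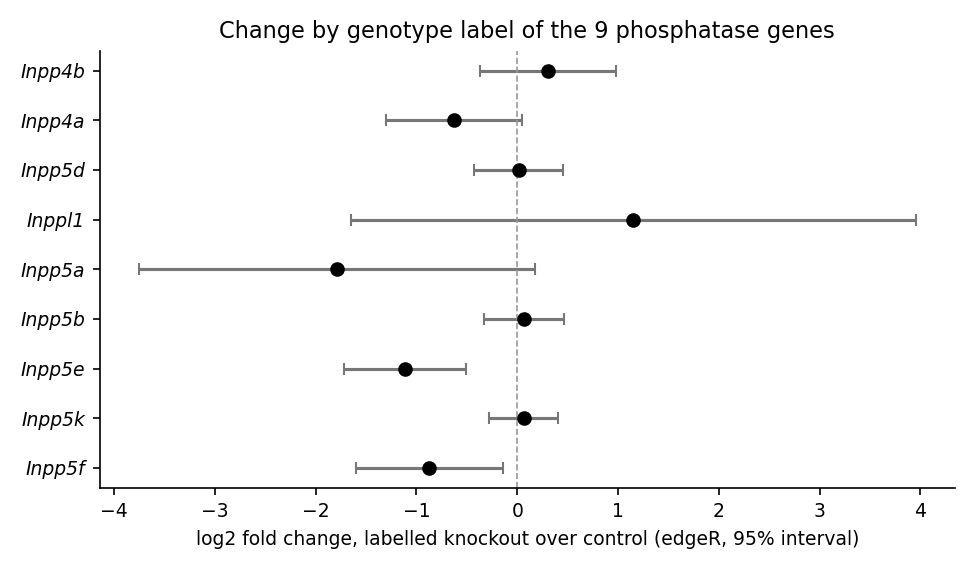
Log2 fold change of each phosphatase gene, libraries labelled knockout (n = 2) over control (n = 2), with the 95% interval of the edgeR fit. The intervals of Inpp5e (-1.72 to -0.51) and Inpp5f (-1.60 to -0.14) lie below 0, the other 7 cross it, and those of the scarce genes Inppl1 and Inpp5a are the widest.

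Inpp4b, the targeted gene, was not lower in libraries labelled knockout. It lies at 81342556 to 82127914 on chromosome 8 of mm10 (all gene positions are from GENCODE M21), with 31 merged exons over 15 annotated transcripts. Read counts of Inpp4b were 4564 and 5033 in controls, or 78.7 and 106.5 CPM. In libraries labelled knockout they were 6126 and 4448, or 142.5 and 86.0 CPM. Library 3 was the highest of the 4, and library 4 lay between the controls. That is a log2 fold change of 0.30 (SE 0.28) whose 95% interval ran from -0.37 to 0.98 (edgeR adjusted p = 0.828), and it was -0.13 without knockout library 3. A whole-gene count holds reads of every exon, and the floxed exons are not named in the sources used here, so this count does not check a deletion of part of the gene. In bulk samples, fewer cells of a type and less RNA per cell cannot be told apart.

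Inpp4a, the paralog of Inpp4b and a phosphatase of the same lipid, lies at 37299865 to 37410736 on chromosome 1. It was at 560.7 and 950.2 CPM in controls and at 413.6 and 565.8 CPM in libraries labelled knockout. Control library 2 stood far above the other 3 libraries, and the groups overlapped, since knockout library 4 exceeded control library 1. The log2 fold change was -0.63 (edgeR adjusted p = 0.548, SE 0.28), and it was -0.20 in the fit that left it smallest, without control library 2, while edgeR with no filter on low counts called it (adjusted p = 0.00657). Neither 4-phosphatase gene shares exon bases with another annotated gene.

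Inpp5d, which encodes SHIP1 and lies at 87620312 to 87720507 on chromosome 1, was at 187.8 and 258.0 CPM in controls and at 220.3 and 229.8 CPM in libraries labelled knockout. Both libraries labelled knockout lay between the controls. Its log2 fold change of 0.01 (edgeR adjusted p = 0.996, SE 0.18) had a 95% interval of -0.43 to 0.46, and changed sign in 4 of 11 alternatives. Blood cells of many kinds express Inpp5d, and the summed levels of the myeloid and T cell markers given above were higher in libraries labelled knockout; their part in its level was not tested.

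Inppl1, which encodes SHIP2, the more widely expressed SHIP enzyme, was scarce in these libraries. It lies at 101822632 to 101838229 on chromosome 7. Its counts were 98 and 6 in the control libraries and 94 and 97 in libraries labelled knockout. Control library 2 alone was low: its exact Poisson 95% interval of 2.20 to 13.1 counts lay far below that of control library 1, from 79.6 to 119. The other 3 libraries gave 1.69, 2.19 and 1.87 CPM. The fitted log2 fold change of 1.15 (edgeR adjusted p = 0.853, SE 1.16) rested on that library, and was 0.26 without it. Inppl1 shares 1204 exon bases with Gm10602 and 95 with Phox2a, both on the opposite strand, and these genes had at most 2 counts in any library. Per kilobase, Inpp5d exceeded Inppl1 93.5-fold and 1710-fold in controls and 84.8-fold and 103-fold in libraries labelled knockout.

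Inpp5e had the smallest p among the 9 genes. Its product removes the 5-phosphate from lipids of the primary cilium, and mutations in the human gene cause Joubert syndrome. It was at 28.6 and 30.8 CPM in controls and at 13.2 and 14.3 CPM in libraries labelled knockout, from counts of 1658 and 1453 against 567 and 738. The groups were apart, and the replicates lay close together, with SDs of 1.53 and 0.756 CPM over 2 libraries. The log2 fold change was -1.11 (SE 0.25), with an edgeR adjusted p = 0.277, so the difference did not pass the threshold over all genes, while DESeq2 (adjusted p = 0.00499) and edgeR with no filter on low counts (adjusted p = 0.0277) called it. Over 11 alternatives the log2 fold change lay between -1.19 and -1.06. The gene lies at 26396249 to 26409203 on chromosome 2 and shares 874 of its 4301 merged exon bases with Pmpca, a mitochondrial protease gene on the opposite strand. Pmpca was at 97.7 and 140.4 CPM in controls and at 112.8 and 111.5 CPM in libraries labelled knockout, and reads in the shared bases cannot be assigned to either gene without strand.

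Of the other 5-phosphatases, Inpp5b and Inpp5k had the narrowest intervals. Inpp5b, at 124741850 to 124801511 on chromosome 4, was at 286.4 and 349.6 CPM in controls and at 307.4 and 360.0 CPM in libraries labelled knockout. Its log2 fold change was 0.07, with a 95% interval of -0.33 to 0.47 (edgeR adjusted p = 0.965). Inpp5k encodes SKIP, an enzyme of skeletal muscle and kidney that is also made elsewhere, and lies at 75630988 to 75648871 on chromosome 11. It was at 150.5 and 136.3 CPM in controls and at 150.2 and 149.4 CPM in libraries labelled knockout, with a log2 fold change of 0.06 and an interval of -0.28 to 0.41 (edgeR adjusted p = 0.963). Both genes overlapped between the groups, and the bounds of their intervals lay within 0.5 of 0 on the log2 scale.

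Inpp5a, whose product acts on soluble inositol phosphates such as the calcium-releasing messenger inositol trisphosphate, was scarce. It lies at 139389109 to 139579652 on chromosome 7. Its counts were 92 and 139 in controls and 38 and 22 in libraries labelled knockout, or 1.59 and 2.94 against 0.884 and 0.425 CPM. The groups did not overlap. The log2 fold change of -1.79 (edgeR adjusted p = 0.556, SE 0.82) had an interval of -3.76 to 0.18.

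Inpp5f is named as a 5-phosphatase, but its product, SAC2, has a SAC domain and is known to remove the 4-phosphate of PI(4)P. The gene lies at 128611328 to 128696425 on chromosome 7. It was at 45.2 and 80.7 CPM in controls and at 36.2 and 32.6 CPM in libraries labelled knockout. Control library 2 was the highest, as for Inpp4a, and the groups did not overlap. The log2 fold change was -0.87 (edgeR adjusted p = 0.434, SE 0.30) with an interval of -1.60 to -0.14. Leaving out control library 2 moved it to -0.40, leaving out control library 1 to -1.23, and edgeR with no filter on low counts called it (adjusted p = 0.0225).

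The balance of the 4-phosphatase pair lay with Inpp4a in every library. Per kilobase, Inpp4a exceeded Inpp4b 8.96-fold and 11.2-fold in controls and 3.65-fold and 8.28-fold in libraries labelled knockout. On the log2 scale the ratio of Inpp4b to Inpp4a was -3.33 ± 0.23 in controls and -2.46 ± 0.84 in libraries labelled knockout (SD, n = 2 each). Both libraries labelled knockout lay above both controls, by 0.87 in the mean, but by 0.28 without knockout library 3. An exact two-sided permutation test gave p = 0.333, the smallest that 2 libraries against 2 can give. Inpp4b made up 3.25% and 3.26% of the summed level of the 9 genes in controls, and 6.07% and 3.25% in libraries labelled knockout, so that library 3 alone stood apart.

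**Figure D3:**
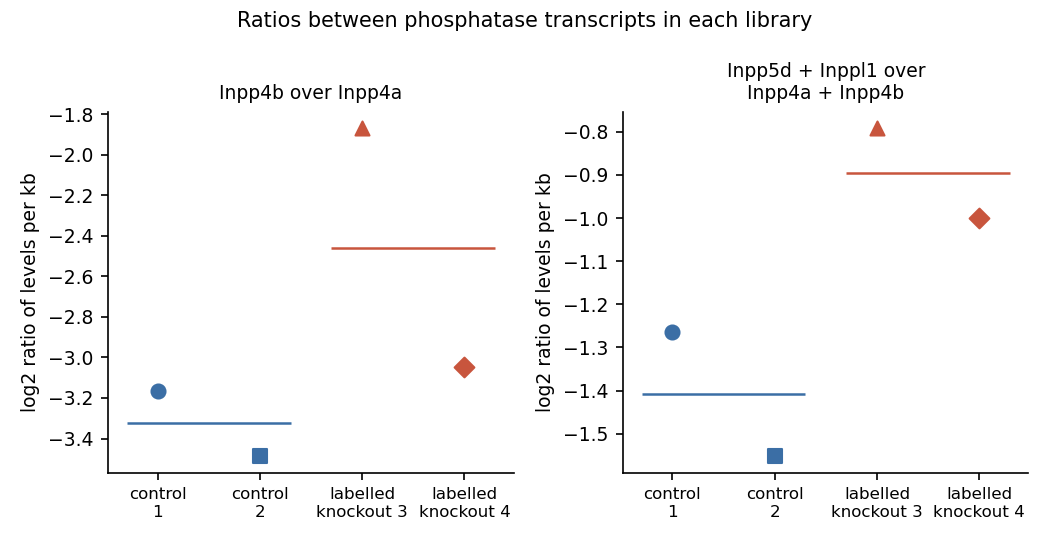
Log2 ratio, in each library, of Inpp4b to Inpp4a and of the SHIP pair to the 4-phosphatase pair, from levels per kilobase, with group means as lines. Both libraries labelled knockout lie above both controls in each panel, and the smallest p possible with 2 against 2 libraries is 0.333.

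Transcripts of the 4-phosphatases exceeded those of the SHIP pair, enzymes that make their substrate, in all 4 libraries. Other phosphatases, such as Inpp5k (mean 25.6 CPM per kilobase) and Inpp5e (mean 5.05 CPM per kilobase), were left out of this comparison. Their part in making the substrate was not tested. The comparison thus covers the named pairs alone and does not weigh all making of the substrate against its removal. The 4-phosphatases summed to 60.0 and 99.6 CPM per kilobase in controls and to 50.7 and 61.1 in libraries labelled knockout, and the SHIP pair summed to 24.96 and 34.0 against 29.3 and 30.5. The log2 ratio of the SHIP pair to the 4-phosphatases was -1.41 ± 0.20 in controls and -0.90 ± 0.15 in libraries labelled knockout (SD, n = 2 each), a difference of 0.51 (exact permutation p = 0.333, two-sided). The groups did not overlap, and the difference was 0.37 to 0.66 when each library was left out. Inpp4a and Inpp5d gave most of the respective sums.

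**Figure D4:**
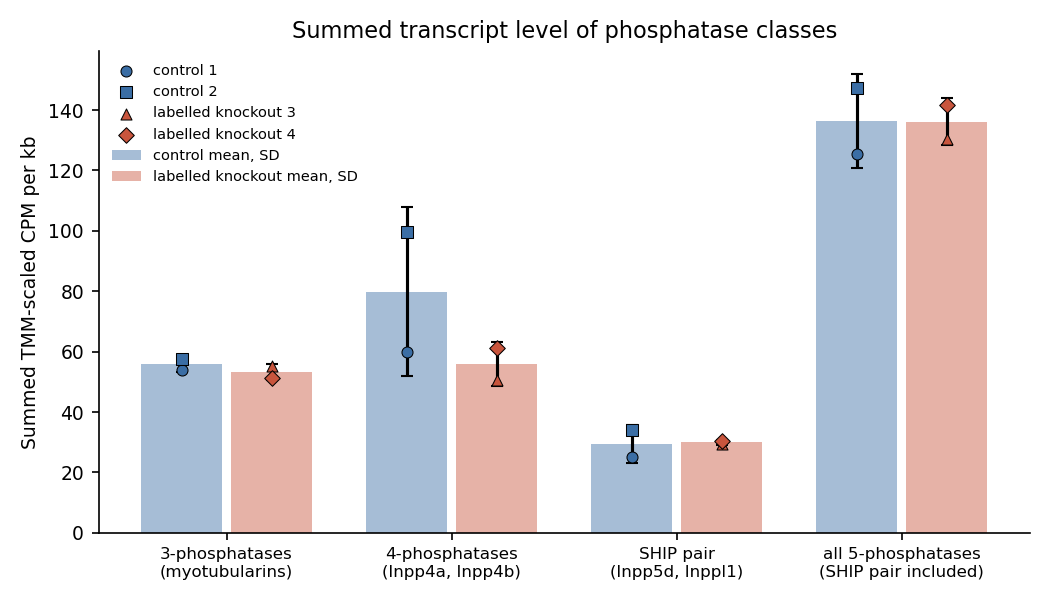
Summed TMM-scaled CPM per kilobase of 3-, 4- and 5-phosphatase genes, with bars for the group mean, error bars for the SD (n = 2) and a point for each library. The 4-phosphatase sum is highest in control library 2 (99.6), while the 5-phosphatase sums are 125 to 147 in all 4 libraries.

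Among the classes as drawn here, 5-phosphatase transcripts were the most abundant. The 10 genes of that class, the 6 members and 4 more, summed to 125.4 and 147.5 CPM per kilobase in controls and to 130.6 and 141.6 in libraries labelled knockout. That was 1.48 to 2.57 times the 4-phosphatase sum, which holds Inpp4a and Inpp4b alone. Inpp5f, Sacm1l (mean 26.7 CPM per kilobase) and Pip4p2 (23.5) were in none of these sums, so the order depends on the choice of members. The 8 myotubularin 3-phosphatases summed to 54.1 and 57.6 in controls and to 55.2 and 51.3 CPM per kilobase in libraries labelled knockout. Their ratio to the 4-phosphatases lay between 0.578 in control library 2 and 1.09 in knockout library 3. Among them Mtmr6, at 25.8, and Mtmr2, at 11.9 CPM per kilobase, were the most abundant, and both exceeded Inpp4b in the mean.

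The other genes of the pathway were taken from 9 lists, of which 68 genes were tested. edgeR called 0 of the 68 and DESeq2 called 1 (Dok3, higher), against 1.61% of all genes that DESeq2 called higher. At an unadjusted p under 0.05, 3 of them were higher (Synj2, Pik3r3 and Dok3) and 1 was lower (Sbf1), where the shares of all genes were 4.48% and 5.17%. Their median log2 fold change was -0.20, against -0.01 for all genes. The groups did not overlap for 23 of the 68 on the lower side, or 33.8%, and for 11 on the higher side, or 16.2%, beside 20.8% and 19.5% of all genes. Of 3 further 5-phosphatases tested, Synj2, which encodes a synaptojanin, was at 5.14 and 3.53 CPM in controls and at 11.1 and 7.11 CPM in libraries labelled knockout (edgeR adjusted p = 0.51). Ocrl, the paralog of Inpp5b, was at 5.21 and 4.001 against 1.14 and 2.44 CPM, with edgeR adjusted p = 0.541. Synj1 was at 36.7 and 49.5 against 35.2 and 26.0 CPM, with edgeR adjusted p = 0.628.

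Of 7 tested myotubularin 3-phosphatases, 5 had a negative log2 fold change, as did 51.3% of all tested genes. Their median was -0.23, and edgeR called 0 of them. Mtmr14 had the smallest p, at 7.16 and 11.1 CPM in controls and at 3.96 and 5.59 CPM in libraries labelled knockout (edgeR adjusted p = 0.556). All 6 catalytically inactive myotubularins, which act as partners of active ones, had negative values with a median of -0.66. Sbf1 was at 60.4 and 49.3 against 24.9 and 41.96 CPM, with edgeR adjusted p = 0.515, and edgeR called 0 of the 6. The 9 other phosphatases of inositol lipids or soluble inositol phosphates had a median of 0.01, and Impa1, an inositol monophosphatase gene, was at 128.6 and 127.4 against 159.3 and 161.1 CPM, with edgeR adjusted p = 0.532.

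On the kinase side, edgeR called 0 of 9 class I subunits (median -0.10), 0 of 4 class II and III genes (median -0.31) and 0 of 11 other phosphoinositide kinases (median -0.27). Pik3r3, which encodes a regulatory subunit, was at 1.03 and 1.38 CPM in controls and at 6.42 and 2.47 CPM in libraries labelled knockout (edgeR adjusted p = 0.46). Pip5k1a, which makes the substrate of class I kinases, was at 31.1 and 24.6 against 17.6 and 19.5 CPM, with edgeR adjusted p = 0.547. The 11 tested genes for proteins that bind PI(3,4)P2 or PI(3,4,5)P3 had a median of -0.15, and Pdpk1, the gene of the kinase that phosphorylates AKT at the membrane, was at 49.8 and 47.0 against 38.0 and 37.0 CPM, with edgeR adjusted p = 0.615.

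Among 7 adaptors known to bind SHIP enzymes, Dok3 was called by DESeq2 (adjusted p = 0.000456) and not by edgeR (adjusted p = 0.277). It was at 0.103 and 0.508 CPM in controls and at 5.44 and 4.43 CPM in libraries labelled knockout. Myeloid and B cells are known for Dok3. Of the 17 myeloid markers given above edgeR called 8 higher, where it called 0.155% of all tested genes in either direction. Of 4 tested B cell and plasma cell markers it called 0 (0 at an unadjusted p under 0.05 and 0 by DESeq2). Their list summed to 715.7 and 1046 CPM in controls against 649.0 and 804.0 CPM in libraries labelled knockout. The part of either cell type in this difference was not tested.

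The 5 genes whose pattern over the 4 libraries was nearest to that of Inpp4b were Hspbap1, Casp8ap2, Ncbp3, Lrrc40 and Chtf18. Nearness was the root mean square difference of log2 CPM after removing each gene's mean, and it was 0.0483 to 0.0586 for these genes, out of 7693 of at least 10 CPM. Since they were chosen for this nearness, each had its highest level in knockout library 3, as Inpp4b did. Casp8ap2 was at 44.3 CPM there, against 25.3 and 31.1 CPM in controls and 25.5 CPM in knockout library 4. Over 4 libraries such nearness is a description only, and 22 genes lay within 0.1.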

How the data were processed

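The deposited table holds read counts that were not normalized, as whole numbers for each Ensembl gene in each of the 4 libraries. STAR, featureCounts, Subread, DESeq2, bcl2fastq and the mm10 build were named per the submitters' processing notes; annotation and strand setting are not given in the sources used here. Per the labels' protocols, a SMARTer low-input kit and a NovaSeq were used. Of 40757 lines, 276 repeats with identical counts were dropped.

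Counts were filtered with filterByExpr, scaled by TMM and tested with edgeR 4.0.16 (two-sided quasi-likelihood test, robust, genotype as the only term) in R 4.3.3. P-values of 14863 genes were adjusted by Benjamini-Hochberg, and 0.05 was the threshold. Lengths and positions came from GENCODE M21 (GRCm38), which held 40254 of the genes. Alternatives were other scalings, filters, lengths and tools (DESeq2 1.42.0, limma 3.58.1), and each library left out. The edgeR script was tested on simulated data. Intervals of counts cover counting error only.

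The 9 members and all lists were chosen with earlier results of these data known. The naming rule took all members, up to 3 genes of smallest p per list and the 5 genes nearest to Inpp4b; 1 gene it also names is not reported here. Clec4f, Mtmr2, Mtmr6 and Pmpca were named after their values were seen.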

Additional observations from a re-analysis of the deposited data

How the results depend on the processing

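The count of genes that edgeR called over the whole table, 23 as reported, was 563 with no filter on low counts, 49 with at least 50 counts in 2 libraries and 423 with DESeq2, and 0 to 17 when each library was left out; without knockout library 4 it was 0, with 1401 genes at an unadjusted p under 0.05. Of the 9 phosphatase genes, 3 were called with no filter (Inpp4a, Inpp5e and Inpp5f) and 1 with DESeq2 (Inpp5e), all lower, and of the pathway lists 1 gene was called with no filter and 1 with DESeq2. The cause of these shifts was not tested. Of the 9 ranks, 7 held with the longest transcript, 5 with no length, and 5 to 9 when each library was left out. The direction of Inpp5d turned with no filter (-0.0029) and with the stricter filter (-0.011). With each library left out, the log2 fold change ranged from -0.20 to 0.26 for Inpp5d, -0.071 to 0.22 for Inpp5b, -0.0065 to 0.14 for Inpp5k and -0.13 to 0.60 for Inpp4b, each crossing 0. In those fits the lone library of a group is assumed to vary like the other group. Of 99 alternatives for single members, 87 kept direction and call, 8 turned direction and 4 gained a call. The titles number the libraries 1 to 4, whereas the columns of the table number them 1 and 2 in each genotype, and no label says that a number marks a shared animal or batch. Over 14863 genes, deviations of same-numbered libraries correlated at 0.12 (Pearson), and 2 pairs are too few to show pairing. A replicate block by the column number, chosen after seeing the data, called 0 genes over the whole table (1709 at an unadjusted p under 0.05) and 0 of the 9, turned no member's direction, and moved Inppl1 to 2.01. Inppl1 and Inpp5a had 139 counts or fewer in each library, and for both genes the counting intervals of the control libraries did not overlap.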
